A study of Mus musculus with 14 samples.

Results

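The Ifi200 cluster is a block of related interferon-inducible genes on mouse chromosome 1, and its 10 members described here are Ifi203, Ifi204, Ifi205, Ifi206, Ifi207, Ifi208, Ifi209, Ifi211, Ifi213 and Aim2, out of 24270 genes in the deposited table. They were taken by name because Ifi208 was lower in Mcemp1-/- than in Mcemp1+/+ lung after ovalbumin (OVA). The Ifi208 values of that comparison therefore chose the members and are given as a description only. The question asked of the other 9 was whether they follow Ifi208. All 10 passed the filter on low values.

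Lungs of C57BL/6 mice were profiled by RNA sequencing of polyadenylated RNA in 14 libraries. The groups were OVA-challenged Mcemp1-/- mice (OVA KO, n = 4), OVA-challenged Mcemp1+/+ mice (OVA WT, n = 4), saline-treated Mcemp1-/- mice (saline KO, n = 3) and saline-treated Mcemp1+/+ mice (saline WT, n = 3). Mice aged 6 to 8 weeks received OVA, or saline as control, into the peritoneum on days 1, 4 and 7 and then, from 5 days later, into the nose each week for 8 weeks. The knockout is a germline frameshift deletion in the first exon of Mcemp1, made with CRISPR-Cas9, so every cell type carries it and a transcript can remain. The number of founders is not given in the sources used here. Beyond the replicate number the labels do not say which animals the libraries came from, so every p-value refers to the spread among these libraries, which may be technical. Depth was 47.3M to 67.1M estimated reads per library. Mcemp1 itself, on chromosome 8, had 4.88, 3.73, 4.17 and 4.25 normalized read counts in OVA KO lungs against 20.1, 11.5, 12.8 and 14.6 in OVA WT lungs, and 3.50, 3.88 and 4.98 in saline KO lungs against 12.0, 9.92 and 9.84 in saline WT lungs, so no library went against its genotype label. Alveolar epithelial markers, which define lung, had scores (mean log2 value) of 9.15 to 10.02 over all libraries. OVA WT 2 stood apart with a B cell score of 6.20 over 10 markers, against 3.67 to 4.19 in the other OVA WT libraries. Heart muscle markers had scores of 3.65 to 5.41 in OVA KO, 2.29 to 3.97 in OVA WT, 4.45 to 5.43 in saline KO and 6.02 to 6.62 in saline WT libraries, and their part in the results was not tested.

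Proteins of this family, called PYHIN or HIN200 proteins, usually pair a pyrin domain, which binds other pyrin domains, with a HIN domain, which binds DNA. Aim2 is the best known: it senses double-stranded DNA in the cytosol and recruits the adaptor ASC (gene Pycard) to build an inflammasome that activates caspase-1. Ifi204 is a mouse DNA sensor that acts through STING to induce interferon, and most of the family is itself switched on by interferons, chiefly in myeloid and lymphoid cells. In bulk tissue, fewer cells of a type and less RNA per cell cannot be told apart.

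The 10 members span 680932 bases, from chr1:173350879-174031810 in the GRCm38 annotation of GENCODE M21, and are protein-coding genes in that annotation. In chromosomal order they are Aim2, Ifi206, Ifi213, Ifi209, Ifi208, Ifi207, Ifi204, Ifi211, Ifi203 and Ifi205, with Aim2, Ifi209 and Ifi208 on the plus strand and the other 7 on the minus strand. Ifi208 lies at chr1:173673675-173698395, with Ifi209 ending 25746 bases before it and the near end of Ifi207 lying 25031 bases after it. The family arose by duplication, and its genes share sequence. Of the 50-base windows in annotated transcripts, 72.8% of those in Ifi211 also occur in another gene (44.7% occur in Ifi205 and 30.1% in Ifi204). The shared part is 33.8% in Ifi209, 25.6% in Ifi206, 20.8% in Ifi208 (18.1% with Ifi213, 6.07% with Ifi206) and 0.628% in Aim2. With 100-base windows it is 56.9% in Ifi211 and 5.92% in Ifi208. The read length and the handling of reads with several matches are not given in the sources used here, so values of Ifi211 in particular are uncertain as a measure of that gene alone. Mndal, another family gene, overlaps Ifi211 and Ifi203 on the same strand, and Aim2 overlaps Cadm3 on the opposite strand. No source states that counting used strand, so reads of those pairs may not be separable either.

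The promoters of 3 members show how alike these genes can be just upstream of their start. They are printed because Ifi208 was the member chosen for its genotype difference and its promoter is nearly a copy of those of Ifi206 and Ifi213. The set of RefSeq promoters used here (250 bases before to 50 after the start, on GRCm38.p6) covered 9 of the 10 members, all but Ifi204. Each stretch below has 160 bases and ends with the same 10 bases, a match to the interferon-stimulated response element (ISRE, searched on both strands as GAAA, any 2 bases, then GAAA), printed in capitals. Capitals inside the stretch mark bases that differ from Ifi208. The Ifi208 stretch is chr1:173673457-173673616 on the plus strand, that of Ifi206 is chr1:173491349-173491508 and that of Ifi213 is chr1:173599336-173599495, both on the minus strand.
Ifi208: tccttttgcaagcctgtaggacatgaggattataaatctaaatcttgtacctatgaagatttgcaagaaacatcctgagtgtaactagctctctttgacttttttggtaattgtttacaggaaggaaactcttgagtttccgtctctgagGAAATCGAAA
Ifi206: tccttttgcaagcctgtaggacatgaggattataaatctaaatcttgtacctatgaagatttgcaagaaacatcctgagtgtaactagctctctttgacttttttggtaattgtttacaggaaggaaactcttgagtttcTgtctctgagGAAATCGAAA
Ifi213: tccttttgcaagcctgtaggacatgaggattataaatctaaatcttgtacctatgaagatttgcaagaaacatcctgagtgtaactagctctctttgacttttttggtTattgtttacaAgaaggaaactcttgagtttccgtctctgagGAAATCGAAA
Counted from 1 at the 5′ end of the Ifi208 stretch, Ifi206 differs by C141T alone (159 of 160 bases equal, 99.4%), and Ifi213 by A109T and G120A (158 of 160, 98.8%). At its best ungapped position no other PYHIN promoter in the table had more than 72 of 160 bases equal to this stretch.

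Ifi211 is the neighbour with the largest genotype difference after OVA, and Ifi209 lies next to Ifi208. At their best ungapped position 59 (Ifi211) and 71 (Ifi209) of 160 bases equalled the Ifi208 stretch. Just before the element, Ifi209 still shares runs such as ttgagtttc and tctctgag with Ifi208. A gapped alignment was not made, so likeness broken by gaps is not measured. The Ifi211 stretch is chr1:173913024-173913183 on the minus strand, and the Ifi209 stretch is chr1:173630680-173630839 on the plus strand. The capitals mark the element in Ifi211 and the aligned bases in Ifi209.
Ifi211: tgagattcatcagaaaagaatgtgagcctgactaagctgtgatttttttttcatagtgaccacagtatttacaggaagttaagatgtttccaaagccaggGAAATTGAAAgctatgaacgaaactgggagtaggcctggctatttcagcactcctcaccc
Ifi209: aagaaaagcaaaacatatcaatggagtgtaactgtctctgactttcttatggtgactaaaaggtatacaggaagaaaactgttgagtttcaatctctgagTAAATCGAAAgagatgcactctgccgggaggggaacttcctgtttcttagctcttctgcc
Ifi209 differs from the 10 bases of Ifi208 by G1T, counted from the first base of the element, which takes it out of the searched letters. The ISRE letters occurred in 7 of the 9 members with a promoter, all but Ifi209 and Aim2, against 3.43% of 32817 promoters of the genome. A gene counted if any of its promoters held the letters, whereas the genome share counts each promoter. Ifi203 had promoters with and without them. Among the type I interferon-stimulated genes used below 10 of 17 with a promoter held the ISRE letters (58.8%), and among the interferon gamma genes 7 of 11 (63.6%). The spacing that STAT6 prefers (TTC, any 4 bases, then GAA) was in 6 of 9 members, against 6.95% of all promoters. In Ifi208, Ifi206 and Ifi213 it is the same letters at the same distance before the ISRE match, so these are not separate occurrences. Nor are their ISRE matches, which end the near-identical stretches above. The plus-strand ISRE matches of Ifi207, Ifi211 and Ifi205 follow a common run, gagcctgactaagctgtgat. The STAT6 matches of Ifi211 and Ifi205 lie just before that run. Both member counts, 7 of 9 and 6 of 9, therefore overstate the number of separate occurrences. These are matches of letters and not measured sites.

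Levels are deposited normalized read counts. The sums over members given below add these counts without division by exon length. Apart from those sums, levels of different genes are compared only per kb of annotated exon. On that scale Ifi203 was the most abundant member in every group, with 12.2 ± 2.03 in OVA KO, 13.98 ± 3.40 in OVA WT, 10.6 ± 0.17 in saline KO and 9.28 ± 1.33 in saline WT lungs (normalized read count per kb, SD). Ifi208 held the ninth place in OVA KO lungs with 1.70 ± 0.20, which did not differ beyond its spread from Ifi204 (1.90 ± 0.45) before it or Ifi205 (1.69 ± 0.23) after it. It held the fifth place in OVA WT lungs with 5.09 ± 0.92, close to Ifi213 (5.20 ± 0.99) before it. In saline KO lungs it held the fifth place with 2.64 ± 0.21, and in saline WT lungs the fourth with 3.73 ± 0.82. Sequence shared between members limits this order too.

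**Figure D1:**
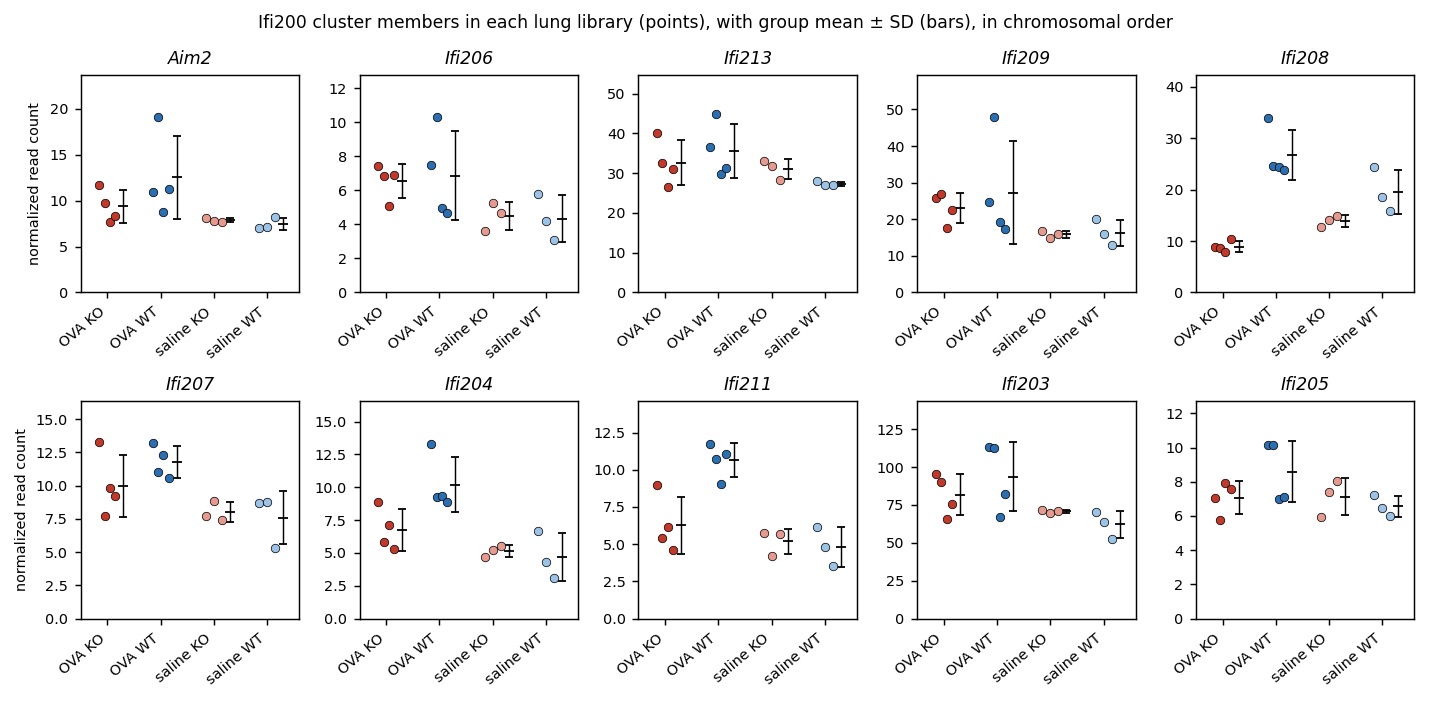
Normalized read count (vertical axis, linear from 0) of each member in the 14 lung libraries, one panel per gene in chromosomal order, with OVA KO, OVA WT, saline KO and saline WT from left to right. Points are libraries and bars are the group mean ± SD. The 4 OVA KO values of Ifi208, 7.78 to 10.3, lie below all others of that gene, and in 5 panels the highest OVA WT point is OVA WT 2.

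Ifi208, which RefSeq also lists as Pydc3, is named here as a family member only. It had 8.91, 8.65, 7.78 and 10.3 normalized read counts in OVA KO lungs against 34.0, 24.6, 24.5 and 23.9 in OVA WT lungs. In saline KO lungs it had 12.7, 14.02 and 14.96, against 24.3, 18.6 and 15.9 in saline WT lungs. The groups did not overlap by genotype under either treatment, and OVA KO libraries were also all below saline KO libraries. The means were 8.92 ± 1.07 in OVA KO, 26.8 ± 4.86 in OVA WT, 13.9 ± 1.12 in saline KO and 19.6 ± 4.29 in saline WT lungs (SD).

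After OVA the log2 difference of Ifi208 between KO and WT was -1.52 (SE 0.14), the value that chose it. The OVA response was -0.62 (SE 0.15) in KO lungs and 0.44 (SE 0.15) in WT lungs, and their difference was -1.06 (SE 0.21). These use the same libraries and are given without a test. Under saline, in libraries the choice did not use, the log2 difference between KO and WT was -0.46 (SE 0.16, 95% interval -0.81 to -0.11). Its unadjusted p was 0.0129 and its adjusted p 1.00 (limma, Benjamini-Hochberg over 22828 genes), so it did not pass the threshold. The SE, interval and limma p-values use a spread pooled over the libraries of all groups. That includes the OVA libraries that chose Ifi208, so they are not free of that choice. The exact permutation test used the saline libraries alone and gave p = 0.1 (two-sided), the smallest that 3 against 3 libraries allow. Leaving out 1 library at a time moved this log2 difference between -0.60 and -0.30, the last without saline WT 1.

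The share of Ifi208 in the summed value of the 10 members puts each library on its own scale. It was 3.91%, 4.34%, 4.83% and 5.69% in OVA KO libraries against 12.4%, 8.19%, 12.7% and 11.5% in OVA WT libraries. It was 7.49%, 8.30% and 8.83% in saline KO libraries against 13.2%, 11.6% and 11.5% in saline WT libraries. Both KO groups lay below both WT groups except that OVA WT 2, at 8.19%, fell within the saline KO range. That library held the highest summed value of the other 9 members, 275.6. The OVA shares use the Ifi208 values that chose it, so their separation was fixed in part and is a description only. Sums of the other 9 were 154.4 to 157.2 in saline KO and 122.0 to 159.7 in saline WT libraries, so they enter the saline shares too. The sums add normalized read counts without division by exon length. Ifi203 weighs most in these sums, with 95.7 of 218.8 in OVA KO 1.

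**Figure D2:**
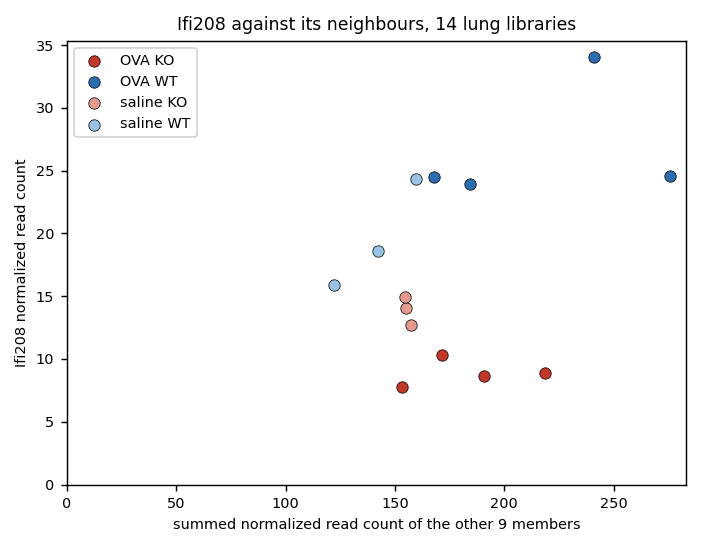
Ifi208 (vertical axis) against the summed value of the other 9 members (horizontal axis), both in normalized read counts, with 1 point per library and 1 colour per group. OVA KO points have sums of 153.4 to 218.8 with Ifi208 between 7.78 and 10.3, while OVA WT points with sums of 167.7 to 275.6 have Ifi208 between 23.9 and 34.0. These Ifi208 values chose it and are a description only.

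The other 9 members did not pass the threshold between KO and WT after OVA. The test called 0 of 9, against 0.39% of all genes tested in either direction and 0.206% lower in KO, and 2 of the 9 had an unadjusted p under 0.05. Counts by unadjusted p, here and below, are descriptions only, because the share of all genes at that cut was not computed. All 9 log2 differences were below 0, with a median of -0.24 and a range of -0.75 to -0.0076, against a median of 0.0095 over all genes, but when columns were scaled to equal totals Ifi206 and Ifi213 were above 0. Leaving out OVA WT 2 put Ifi206 and Ifi209 above 0, and leaving out OVA WT 2 and OVA KO 3 together put Ifi203, Ifi206, Ifi209 and Ifi213 above 0. Leaving out OVA KO 3 or OVA WT 1, or weighting the libraries, also put Ifi206 above 0, and the weights put Ifi209 above 0 as well.

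Ifi211 had the largest difference among the neighbours. Its values were 8.98, 5.398, 6.15 and 4.58 in OVA KO lungs against 11.7, 10.7, 9.05 and 11.1 in OVA WT lungs, a log2 difference of -0.75 (SE 0.19, 95% interval -1.16 to -0.34, adjusted p = 0.095, limma). The groups did not overlap, although OVA KO 1 came close to OVA WT 3. Without OVA KO 1 the difference was -0.92 with adjusted p = 0.015 (limma), which passed the threshold, but 4.9% of all genes then passed in place of 0.39%. Over all 26 alternatives its adjusted p lay between 0.015 and 0.30.

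Ifi204, the STING-dependent DNA sensor, had 8.88, 5.80, 7.16 and 5.30 in OVA KO lungs against 13.3, 9.26, 9.30 and 8.89 in OVA WT lungs. The highest OVA KO value, 8.878, was just under the lowest OVA WT value, 8.892, so the groups did not overlap by a narrow margin. The log2 difference was -0.56 (SE 0.21, adjusted p = 0.18, limma). Ifi211 and Ifi204 were the 2 neighbours whose OVA KO and OVA WT values did not overlap, against 7.13% of all genes tested (4.04% lower in KO). They share sequence with each other, so they are not independent of one another.

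Aim2, the inflammasome sensor and the member with the least shared sequence, had 11.8, 9.72, 7.65 and 8.35 in OVA KO lungs against 10.9, 19.2, 8.77 and 11.3 in OVA WT lungs. The groups overlapped, and OVA WT 2 was the highest library. The log2 difference was -0.36 (SE 0.19, adjusted p = 0.34, limma). Ifi206 and Ifi213, whose promoters are nearest to that of Ifi208, had differences near 0. Ifi206 had 7.42, 6.83, 5.07 and 6.90 in OVA KO lungs against 7.48, 10.3, 4.99 and 4.66 in OVA WT lungs (log2 difference -0.0076, SE 0.24). Ifi213 had 40.1, 32.7, 26.4 and 31.1 in OVA KO lungs against 36.5, 44.8, 29.7 and 31.3 in OVA WT lungs (log2 difference -0.12, SE 0.13). The OVA KO values of Ifi206 lay inside the OVA WT range, and those of Ifi213 overlapped it. The 95% interval of Ifi206 was -0.52 to 0.50 and that of Ifi213 -0.41 to 0.16.

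The remaining neighbours lay between these. Ifi203, an interferon-inducible nuclear protein, differed by -0.18 (SE 0.16), Ifi205, linked to Asc expression in mouse macrophages, by -0.25 (SE 0.15), Ifi207, linked in mouse to STING and the control of retroviruses, by -0.24 (SE 0.17), and Ifi209 by -0.13 (SE 0.25). Adjusted p-values of these 4 lay between 0.39 and 0.82 (limma), and their groups overlapped.

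**Figure D3:**
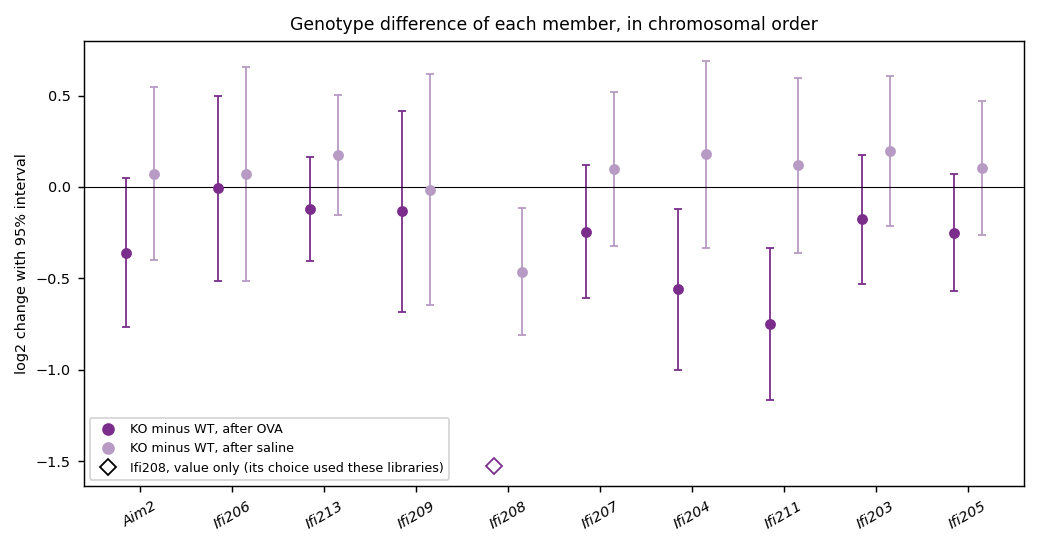
Log2 change of KO minus WT (vertical axis) for each member in chromosomal order, with 95% intervals, after OVA (left of each pair) and after saline (right). The open diamond is Ifi208 after OVA at -1.52, drawn without an interval because that comparison chose it; Ifi211 at -0.75 and Ifi204 at -0.56 are next.

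Under saline the test called 0 of the 10 members, against 0.0832% of all genes (0.00876% higher and 0.0745% lower in KO), and Ifi208 alone had an unadjusted p under 0.05. Of the 9 neighbours 8 had a log2 difference above 0, the exception being Ifi209 at -0.014, and their range was -0.014 to 0.20, beside -0.46 for Ifi208. With library weights Ifi207 was also below 0. Without saline WT 3, only Ifi203, Ifi205, Ifi213 and Aim2 stayed above 0. Ifi213 had 33.0, 31.7 and 28.2 in saline KO lungs against 27.9, 26.9 and 27.1 in saline WT lungs, which did not overlap and were higher in KO (log2 difference 0.18, SE 0.15, adjusted p = 1.00, limma). Ifi208 and Ifi213 were the 2 members of 10 without overlap under saline, in opposite directions, against 11.4% of all genes (5.81% higher and 5.54% lower in KO).

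In OVA against saline WT lungs 3 of the 9 neighbours rose and 0 fell, against 11.8% of all genes called (4.36% higher and 7.45% lower), and all 10 members had a log2 change above 0. Each of the 9 neighbours had an unadjusted p under 0.05, a count without a share of all genes beside it. The median over the 10 was 0.60 (0.63 over the 9 neighbours), against 0.0056 over all genes. With columns scaled to equal totals, which moved the median of all genes to -0.17, all 10 remained above 0 with a median of 0.39. The members share libraries and partly sequence, so the 10 are not 10 separate observations.

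The 3 that rose were Ifi211, Ifi204 and Ifi207. Ifi211 had 11.7, 10.7, 9.05 and 11.1 in OVA WT lungs against 6.18, 4.82 and 3.50 in saline WT lungs, a log2 change of 1.09 (SE 0.21, adjusted p = 0.0051, limma). Ifi204 had 13.3, 9.26, 9.30 and 8.89 in OVA WT lungs against 6.68, 4.29 and 3.09 in saline WT lungs, a log2 change of 1.083 (SE 0.22, adjusted p = 0.0074, limma). In both genes all 4 OVA libraries lay above all 3 saline libraries. Ifi207 had 13.2, 11.02, 12.3 and 10.6 in OVA WT lungs against 8.70, 8.76 and 5.32 in saline WT lungs, a log2 change of 0.63 (SE 0.18, adjusted p = 0.041, limma). Ifi207 lost its call in 10 of 26 alternatives, namely with equal totals, with only the groups compared, and without OVA WT 1, 3 or 4, saline WT 2 or 3, or any 1 of the saline KO libraries. Its change was 0.40 without saline WT 3 (adjusted p = 0.17, limma), while Ifi211 and Ifi204 kept theirs in all 26.

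Aim2 and Ifi203 came close to the threshold in WT lungs. Aim2 had 10.9, 19.2, 8.77 and 11.3 in OVA WT lungs against 7.02, 7.17 and 8.26 in saline WT lungs, without overlap (log2 change 0.65, SE 0.20, adjusted p = 0.055, limma). Without OVA WT 2 and OVA KO 3 its change was 0.43 with adjusted p = 0.042 (limma). Ifi203 had 113.1, 112.4, 67.3 and 82.2 in OVA WT lungs against 70.2, 63.7 and 52.7 in saline WT lungs, with 1 OVA library inside the saline range (log2 change 0.56, SE 0.18, adjusted p = 0.056, limma). The remaining 4 neighbours had log2 changes of 0.63 (Ifi209), 0.58 (Ifi206), 0.36 (Ifi213) and 0.34 (Ifi205), with adjusted p-values of 0.13 to 0.19 (limma). OVA WT and saline WT values did not overlap in Ifi204, Ifi207, Ifi211, Ifi213 and Aim2, which is 5 of the 9 neighbours, against 22.9% of all genes (10.3% higher after OVA).

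In KO lungs the same comparison called 0 of the 9 neighbours, against 0.377% of all genes, with a median log2 change of 0.22 against -0.0086 over all genes. By an unadjusted p under 0.05, 0 of the 9 passed (limma). Of them 8 had a change above 0, up to 0.51 in Ifi209 and 0.50 in Ifi206, and Ifi205 had -0.0069, but with equal totals Ifi213 was also below 0 and with trimmed-mean scaling Ifi205 was above 0. Ifi209 had 25.7, 26.8, 17.6 and 22.5 in OVA KO lungs against 16.7, 14.9 and 16.1 in saline KO lungs (SE 0.27, adjusted p = 0.51, limma). Ifi209 was the 1 neighbour of 9 without overlap between OVA KO and saline KO, against 12.8% of all genes (5.75% higher and 7.07% lower after OVA).

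Ifi211 and Ifi204 had smaller values in this comparison than in WT lungs. Ifi211 had 8.98, 5.398, 6.15 and 4.58 in OVA KO lungs against 5.72, 4.24 and 5.67 in saline KO lungs (log2 change 0.22, SE 0.21), and Ifi204 had 8.88, 5.80, 7.16 and 5.30 against 4.68, 5.26 and 5.51 (0.34, SE 0.22). In both the groups overlapped, with OVA KO 1 highest. The test of the difference between the OVA responses, KO minus WT, gave -0.87 (SE 0.29, adjusted p = 0.64, limma) for Ifi211 and -0.74 (SE 0.31, adjusted p = 0.68, limma) for Ifi204. It called 0 of the 9 neighbours, against 0.00438% of all genes, which is 1 gene and higher. The differences of all 9 were below 0, from -0.87 to -0.078, although Ifi206 and Ifi209 were above 0 with equal totals, with library weights, and without OVA KO 3, OVA WT 2 or saline WT 3. By an unadjusted p under 0.05, 2 of the 9 passed. A difference in response was therefore not shown for any neighbour.

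**Figure D4:**
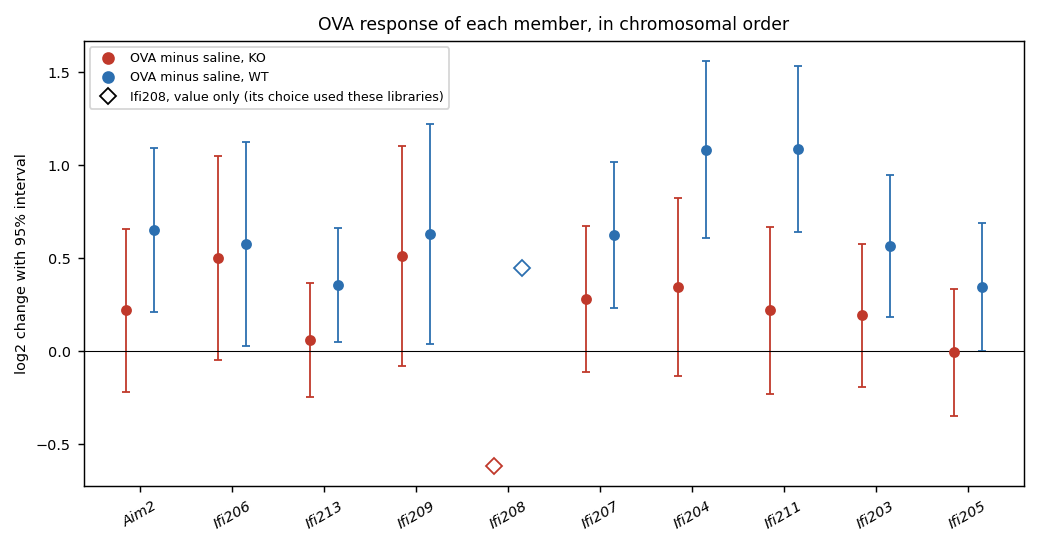
Log2 change of OVA minus saline (vertical axis) for each member in chromosomal order, with 95% intervals, in KO lungs (left of each pair) and in WT lungs (right). All WT values lie between 0.34 and 1.09; the open diamonds are Ifi208, at -0.62 in KO and 0.44 in WT lungs.

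Ifi209 and Ifi207, the members on either side of Ifi208, differed by -0.13 and -0.24 after OVA, beside -0.75 for Ifi211, whose start lies 239.4 kb from that of Ifi208. The pseudogene Gm18752 begins 27.7 kb after the start of Ifi208, between it and Ifi207, shares sequence with Ifi206, and differed by -0.35 (adjusted p = 0.24, limma); it was singled out after its values were seen. Of the 19 genes within 1 Mb of the cluster that are not PYHIN genes, Gm18752 included, 0 were called between KO and WT after OVA or saline, with medians of -0.050 and -0.084. In OVA against saline WT lungs 3 of the 19 rose and 1 fell, against 4.36% higher and 7.45% lower of all genes. Those that rose were Slamf8 (log2 change 1.14, adjusted p = 0.00077), Ackr1 (0.97, adjusted p = 0.042) and Slamf9 (0.84, adjusted p = 0.021, limma). Slamf8 and Slamf9 encode receptors of the SLAM family, and Ackr1 is an atypical chemokine receptor of venules.

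**Figure D5:**
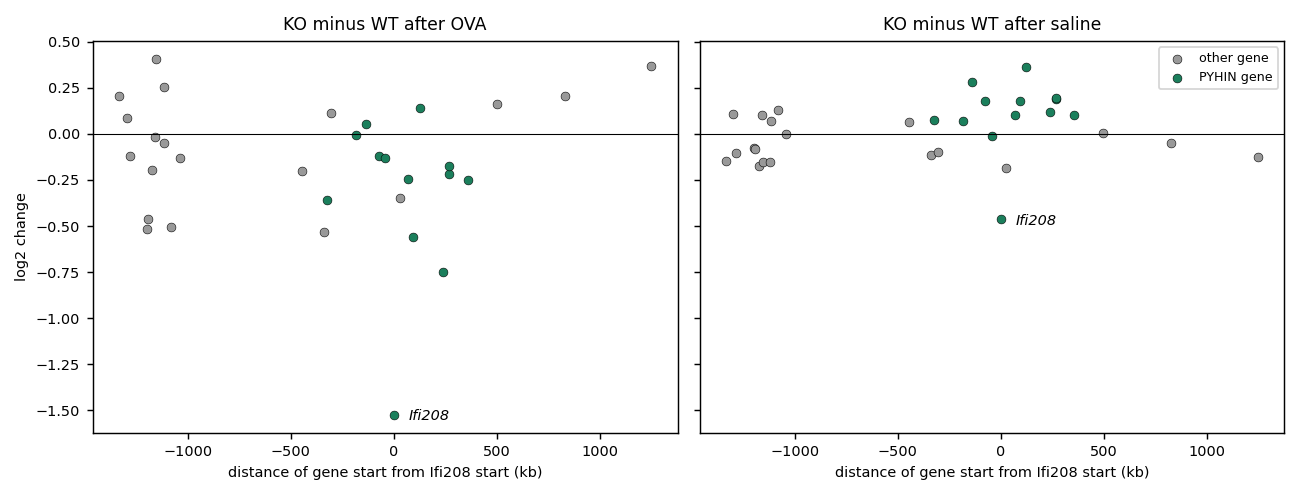
Log2 change of KO minus WT (vertical axis) against the distance of each gene's start from that of Ifi208 in kb (horizontal axis, strand taken into account), after OVA (left panel) and after saline (right panel), for PYHIN genes and for other genes within 1 Mb of the cluster. Ifi208, at -1.52 and -0.46, lies below every other gene in both panels.

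Of the other PYHIN genes of the cluster 4 were in the table and 0 of the 3 tested were called in any comparison (limma; Mndal had an unadjusted p under 0.05 in OVA against saline WT lungs, and 1 of the 3 was called there without OVA WT 3 and with the replicate block). Mndal had 86.4, 78.8, 63.9 and 61.5 in OVA KO lungs against 98.4, 114.7, 60.1 and 72.3 in OVA WT lungs (log2 difference -0.22, SE 0.17, adjusted p = 0.53, limma). Ifi214 differed by 0.052 (SE 0.31) and the pseudogene Ifi203-ps by 0.14 (SE 0.23). Ifi202b, a family member without a pyrin domain, which inhibits Aim2 in mouse, was under the filter: it had 0.761 in OVA KO 3 and 0.634 in OVA WT 2 and at most 0.163 in the other 12 libraries.

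Across the 14 libraries Ifi208 ran apart from its neighbours, as its choice by genotype fixes in part. Pearson's r on the log2 scale was 0.079 to 0.51 in the 9 pairs with Ifi208 (median 0.26) and 0.47 to 0.93 in the other 36 pairs (median 0.67). After subtracting group means the medians were 0.46 and 0.46, the same to 2 digits. These correlations are descriptions over 14 libraries that share depth and tissue. Within groups Ifi204, Ifi207 and Ifi211 ran together (r of 0.65 to 0.81), as did Ifi203, Ifi206, Ifi209, Ifi213 and Aim2 (r of 0.56 to 0.87). These sets were picked from the same correlations, and Ifi211 and Ifi204 share sequence. Some pairs outside them were as high as the lower pairs within, such as Ifi205 with Ifi206 (0.653) and Ifi204 with Ifi208 (0.646). In the second set OVA WT 2 was highest of the OVA WT libraries for Ifi206 (10.3), Ifi209 (47.9), Ifi213 (44.8) and Aim2 (19.2), and it also held the highest B cell score, 6.20, and T cell score, 4.80, against 2.63 to 2.75 in the other OVA WT libraries. Its part in these correlations was not tested.

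The genes whose values ran most like Ifi208 over the 14 libraries were Mcemp1 (r = 0.91), Zfp385a (0.90), Meox1 (0.88), Rspo4 (0.88) and Plac9a (0.87), on chromosomes 8, 15, 11, 2 and 14. Ifi208 was chosen on genotype, so likeness to the deleted gene follows in part from that choice. Zfp385a had 7.22, 5.77, 5.87 and 6.29 in OVA KO lungs against 10.7, 10.2, 8.82 and 8.28 in OVA WT lungs, and 7.22, 6.84 and 6.54 in saline KO lungs against 8.49, 7.91 and 6.67 in saline WT lungs. Plac9a had 19.4 to 28.6 in OVA KO lungs against 94.8 to 147.1 in OVA WT lungs, and 25.3 to 29.0 in saline KO lungs against 71.0 to 118.4 in saline WT lungs. Plac9a was thus low in KO libraries under both treatments, whereas in Ifi208 the genotypes were closer under saline.

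Genes of the pathways around the family were taken from lists. Of all genes 11.8% were called in OVA against saline WT lungs (4.36% higher) and 0.377% in OVA against saline KO lungs. Between KO and WT the share was 0.39% after OVA (0.206% lower in KO). The list counts by adjusted p, here and in the next paragraph, stand beside these shares. Of 10 partners of the AIM2 inflammasome 5 rose and 0 fell after OVA in WT lungs (median log2 change 0.39), among them Casp4 (0.55, adjusted p = 0.0081), Casp1 (0.63, adjusted p = 0.011), Pycard (0.67, adjusted p = 0.018) and Gsdmd (0.41, adjusted p = 0.021, limma), which encode inflammatory caspases, the adaptor ASC and the pore protein gasdermin D. With equal totals 0 of the 10 passed, and without saline WT 2, 1 passed (3 without saline WT 1 or saline WT 3). Of 11 genes of cGAS-STING DNA sensing 4 rose and 0 fell: Zbp1 (1.67, adjusted p = 0.0017), Samhd1 (0.52, adjusted p = 0.0032), Trex1 (0.68, adjusted p = 0.010) and Cgas (0.52, adjusted p = 0.011, limma). With equal totals 2 of the 11 passed. These cover a nucleic acid sensor of cell death, a dNTP hydrolase, a DNA exonuclease and the DNA sensor cGAS. In KO lungs 0 of 10 and 0 of 11 passed after OVA (2 and 2 by an unadjusted p under 0.05, limma), with medians of 0.11 and 0.15.

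Of 24 type I interferon-stimulated genes 15 rose and 0 fell (median 0.74), among them Irf9 (0.57), Oas1a (1.16), Ifit1 (1.36) and Oasl2 (0.93), with adjusted p-values of 0.0025 to 0.0034 (limma), and the count was 8 without saline WT 2 and 10 without saline WT 3. All 15 interferon gamma genes rose (median 1.10; 11 passed without saline WT 2), among them Cxcl9 (4.31, adjusted p = 0.00026), Cd274 (1.47, adjusted p = 0.00037), Ifng (0.82) and Igtp (1.44, both adjusted p = 0.0011, limma). In KO lungs 0 of 24 (3 by an unadjusted p under 0.05) and 1 of 15 (9 by an unadjusted p under 0.05) passed, the last being Cxcl9 (3.46, adjusted p = 0.0054, limma). Between KO and WT after OVA 0 of 24 passed (15 by an unadjusted p under 0.05), with a median of -0.44, and 1 of 15 passed (14 by an unadjusted p under 0.05), with a median of -0.69: Cd274 (-0.90, adjusted p = 0.036, limma). Among DNA-sensing genes 1 of 11 passed (3 by an unadjusted p under 0.05), Trex1 (-0.72, adjusted p = 0.045, limma), and among inflammasome partners 0 of 10 (2 by an unadjusted p under 0.05). These counts depended on single libraries: without OVA KO 1, 7 of 24, 11 of 15 and 2 of 11 passed, and without other single libraries 0 of 24, 0 to 4 of 15 and 0 or 1 of 11. Calls over all genes moved too: 4.9% passed without OVA KO 1 in place of 0.39%, and 0.127% to 0.399% without other single libraries. The medians of the interferon lists, -0.44 and -0.69, stand beside -0.24 for the 9 neighbours and -1.52 for Ifi208. Between KO and WT under saline their medians were 0.014 and 0.074, and 0 genes of either list passed, adjusted or unadjusted (limma).

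Markers of cells that can carry these transcripts are given for comparison. Of all genes 4.36% were called higher in OVA against saline WT lungs, and 0.206% lower in KO than in WT after OVA. Of 13 monocyte and macrophage markers 10 rose and 0 fell in OVA against saline WT lungs, with scores of 4.74 to 4.99 in OVA KO, 4.96 to 5.20 in OVA WT, 4.24 to 4.45 in saline KO and 4.31 to 4.62 in saline WT libraries. Between KO and WT after OVA 1 of the 13 was lower, Ms4a7 (-0.66, adjusted p = 0.042, limma), while 9 of the 13 had an unadjusted p under 0.05 and the median was -0.42. Of 10 dendritic cell markers 1 was lower, Batf3 (-1.21, adjusted p = 0.045, limma), and 6 had an unadjusted p under 0.05 (median -0.41), with scores of 3.47 to 3.86 in OVA KO and 3.75 to 4.36 in OVA WT libraries. Of 10 T cell markers and 10 B cell markers 0 passed between KO and WT after OVA, adjusted or unadjusted (limma). Neutrophil scores were 3.85 to 4.01 in OVA KO against 1.99 to 3.33 in OVA WT libraries, with 0 of 8 markers past the threshold and 7 of 8 at an unadjusted p under 0.05 (limma). They were also higher in KO under saline, 3.23 to 4.01 against 2.31 to 3.21 in saline WT libraries. There 0 of 8 markers passed and 6 of 8 had an unadjusted p under 0.05 (limma). The median log2 difference was 1.10 after OVA and 0.996 under saline. Mast cell scores, 1.52 to 1.85 in OVA KO and 1.41 to 1.93 in OVA WT libraries, overlapped. The part of these cells in the members' values was not tested.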

How the data were processed

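Lung RNA was sequenced in 14 poly(A) libraries. Per the labels, STAR and Partek were the authors' tools and mm10 their build; the deposited table holds normalized read counts, and the normalization method is not given in the sources used here. Its values were treated as a signal deposited by the authors and not as raw counts. Depth was estimated as the column total over its lowest value, taken as 1 read; low values lay within 0.1 of a whole multiple of it in 73.9% to 77.0% of cases, too few to recover reads, so count models were not used and precision rests on the spread between libraries. The table's coordinates are of another build (2.19% of starts equal GRCm38), and positions came from GENCODE M21 through gene identifiers, of which 99.6% were found.

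Values were analysed as log2(value + 0.502), the pseudocount being 0.5 ppm of the mean column total, on which scale the change of a low gene is understated. Genes with at least 0.2 ppm in at least 3 libraries were kept, 22828 of 24270. A 4-group linear model was fitted to them in limma 3.58.1 (R 4.3.3; trend and robust), with 5 two-sided contrasts and Benjamini-Hochberg adjustment at 0.05. The study's own test, Partek's Gene Specific Analysis, was not run. In simulated data of 19406 genes with 200 changed, 75% of 2-fold and 91% of 4-fold changes were recovered for OVA against saline in WT, and 61% and 85% for KO against WT after saline (19405 genes). Alternatives covered scaling, pseudocount, filter, weights, replicate block and each library left out. The trimmed-mean scaling was coded for this work, since the values are not raw counts. Python 3.11.15, scipy 1.17.1 and pandas 2.3.3 were used.

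Groups came from sample titles; columns marked CO were read as the saline control. The members and all gene lists were chosen with earlier results of these data known. The text names all members, the other PYHIN genes, Mcemp1, the 5 genes most like Ifi208 by Pearson's r, up to 4 genes per pathway list by smallest p in OVA against saline in WT, genes within 1 Mb that were called, and genes of a list called by genotype, the last chosen after their values were seen. Genes of cell marker lists are given by counts and scores. The identity of 1 called gene within 1 Mb and the result of 1 of 3 motif searches are not reported here.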

Additional observations from a re-analysis of the deposited data

Results flagged for a closer look

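Of 20 groups of 4 libraries tested for a library far from the others (10 members in OVA KO and in OVA WT), 2 were flagged, and chance flags about 1 in 20 groups. OVA WT 1 had 34.03 normalized read counts of Ifi208, against 23.9 to 24.6 in the other OVA WT libraries, a gap above Dixon's 95% critical value for 4 samples; these values are among those that chose Ifi208, so the gap is a description only. OVA WT 1 also had 13.296 normalized read counts of Ifi204, against 8.89 to 9.30 in the other OVA WT libraries, the 1 flag among the 9 neighbours. OVA WT 1 held the highest OVA WT value of 5 members and OVA WT 2 that of the other 5, while OVA KO 1 held the highest OVA KO value of 7.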

How the results depend on the processing

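With library weights 5 members passed in OVA against saline WT lungs in place of 3, with 20.6% of all genes in place of 11.8%. They were Ifi204, Ifi207, Ifi211, Aim2 and Ifi208. The OVA WT values of Ifi208 chose it, so nothing is read from its call. In OVA against saline KO lungs 1 passed in place of 0, with 2.83% of all genes in place of 0.377%; it was Ifi208, whose OVA KO values chose it, so nothing is read from it. Leaving out 1 library at a time gave 2 to 4 members in OVA against saline WT lungs, with 5.11% to 13.4% of all genes. Without saline WT 1 the 4 included Ifi208, whose OVA WT values chose it, so nothing is read from that call. Between KO and WT after OVA the same step gave 0 to 1 of the 9 neighbours, the 1 being Ifi211 without OVA KO replicate 1. It gave 0 elsewhere. No called member changed direction under any alternative. With columns scaled to equal totals the median of all genes in OVA against saline WT lungs was -0.17, and 467 genes were called higher and 4340 lower, in place of 995 and 1700; between KO and WT after OVA the median was 0.11, with 101 higher and 31 lower in place of 42 and 47. There Ifi208 changed by 0.22 in WT lungs in place of 0.44 and Ifi207 lost its call (0.41, adjusted p = 0.11, limma). Deviations of 19 same-numbered pairs correlated with a median r of 0.031, and 5 exceeded 0.1. In 54 other-numbered pairs the median was -0.0053, and 15 exceeded 0.1. Pairing by replicate number was thus not seen, but so few libraries per group cannot exclude it. With the replicate block 4 members passed in OVA against saline WT lungs, Ifi203 being added (adjusted p = 0.012, limma), and 2888 of all genes in place of 2695; between KO and WT after OVA 214 genes passed in place of 89 and 0 of the 9 neighbours. All genes called between KO and WT after OVA numbered 17 with only the groups compared, 242 with weights, and 29 to 1116 with 1 library left out (1116 without OVA KO replicate 1). Subtracting the offset and leaving out OVA WT 2 with OVA KO 3 were chosen after seeing the data. Depth and overlap of gene sequences limit the low members most: Ifi204, Ifi206 and Ifi211 had 243 to 469 estimated reads on average per group.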
